A study of Homo sapiens with 6 samples.

Results

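The genes described here were grouped as basophil and eosinophil lineage genes. They were read in NB4 cells, an established human acute promyelocytic leukemia line that carries the PML-RARA fusion. The name is that of the set and does not describe the NB4 cells. The set named 9 genes: HDC, EPX, PRG2, PRG3, CLC, GATA2, MS4A3, RNASE2 and RNASE3. Of these, 8 had a row in the table of 18625 genes, and CLC was absent from it and is not analysed here. The set was chosen by the measured difference between Tan I and DMSO in these same libraries, known from earlier work with the data, so that difference is given below for its members as a description, with no p-value. RNA-seq was done on NB4 cells given the solvent DMSO alone (3 libraries) or 10 μM Tan I (Tanshinone I, a diterpene of Salvia miltiorrhiza) for 3 days (3 libraries). All libraries came from the same line, and nothing in the labels says whether the replicates were separate cultures, so the spread between them may be technical.

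Eosinophils and basophils are granulocytes that branch from a common myeloid progenitor under GATA factors, with C/EBP factors and the cytokines IL-5, IL-3 and GM-CSF. Eosinophils fill their secondary granules with cationic proteins: a peroxidase (EPX), major basic protein (PRG2) and its homolog (PRG3), and the ribonucleases EDN (RNASE2) and ECP (RNASE3). CLC is galectin-10, the protein of Charcot-Leyden crystals. Basophils and mast cells make histamine with histidine decarboxylase (HDC), GATA2 is a transcription factor of stem cells, mast cells and basophils, and MS4A3 is a membrane protein of granulocyte progenitors. Promyelocytes, the stage at which NB4 cells are arrested, hold primary granules with the related peroxidase MPO.

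The RefSeq promoter windows of GRCh38.p14, from 250 bases before to 50 bases after the annotated start, were read for 7 of the 9 genes. EPX and PRG2 were not matched. The first window below is that of HDC, the most abundant member, at chr15:50265677-50265976 on the - strand. Next are PRG3, at chr11:57381101-57381400 on the - strand, and MS4A3, at chr11:60056415-60056714 on the + strand, in which capitals mark matches on either strand to the GATA motif, searched as AGATAA in its first form, as TGATAA in its second, as AGATAG in another and as TGATAG in its last.

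HDC: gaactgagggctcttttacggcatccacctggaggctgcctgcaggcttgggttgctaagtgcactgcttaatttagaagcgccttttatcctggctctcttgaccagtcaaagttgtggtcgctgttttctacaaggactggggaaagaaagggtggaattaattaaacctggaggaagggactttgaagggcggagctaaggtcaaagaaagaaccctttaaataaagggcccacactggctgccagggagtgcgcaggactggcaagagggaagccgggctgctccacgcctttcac
PRG3: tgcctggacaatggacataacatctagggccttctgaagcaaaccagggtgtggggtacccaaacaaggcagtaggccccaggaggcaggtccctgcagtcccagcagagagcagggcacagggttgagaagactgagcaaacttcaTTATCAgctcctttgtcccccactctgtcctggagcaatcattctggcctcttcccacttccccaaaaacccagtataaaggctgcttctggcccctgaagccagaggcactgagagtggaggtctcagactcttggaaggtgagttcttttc
MS4A3: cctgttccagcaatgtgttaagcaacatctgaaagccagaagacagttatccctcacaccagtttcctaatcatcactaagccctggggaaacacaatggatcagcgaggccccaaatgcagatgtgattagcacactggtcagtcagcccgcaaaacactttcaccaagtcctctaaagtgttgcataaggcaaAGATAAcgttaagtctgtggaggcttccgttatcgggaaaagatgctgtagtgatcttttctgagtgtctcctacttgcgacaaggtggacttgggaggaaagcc

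PRG3 held 1 GATA match (TGATAA on the opposite strand, 103 bases before the start) and MS4A3 held 1 (AGATAA, 55 bases before the start). CLC held 2, and HDC, GATA2, RNASE2 and RNASE3 held 0. A GATA match was present in 25.0% of the 35116 promoter windows of this length. The C/EBP motif, searched only as TTGCNNAAT on either strand, was in 2.66% of all windows and in 0 of the windows of the members. Forms without the final T were not searched and do occur, for example TTGCACAA in RNASE2 and RNASE3 and TTGCATAA in MS4A3. A match is only a run of letters, and the windows of the genes with 0 matches may lie apart from the starts used in NB4 cells.

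The pair RNASE2 and RNASE3 is shown because these paralogs lie 63.1 kb apart and share stretches of sequence. Only the stretches shared by their transcripts, given below, bear on how their reads are told apart. Capitals mark the longest run identical in both windows, at chr14:20955237-20955536 for RNASE2 and chr14:20891135-20891434 for RNASE3, both on the + strand.

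RNASE2: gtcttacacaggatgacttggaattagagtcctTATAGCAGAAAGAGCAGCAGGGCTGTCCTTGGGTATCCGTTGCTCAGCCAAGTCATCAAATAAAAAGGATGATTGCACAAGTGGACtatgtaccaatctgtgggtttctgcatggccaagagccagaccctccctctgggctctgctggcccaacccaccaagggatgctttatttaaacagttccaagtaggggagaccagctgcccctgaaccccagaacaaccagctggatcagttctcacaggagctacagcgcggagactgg
RNASE3: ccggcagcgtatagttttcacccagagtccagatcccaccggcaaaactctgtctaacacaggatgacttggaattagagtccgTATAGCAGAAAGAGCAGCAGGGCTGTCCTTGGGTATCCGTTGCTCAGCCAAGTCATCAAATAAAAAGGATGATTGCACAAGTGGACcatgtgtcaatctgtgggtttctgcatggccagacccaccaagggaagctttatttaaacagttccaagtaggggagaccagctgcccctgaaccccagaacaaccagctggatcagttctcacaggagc

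The identical run was 86 bases long. It lay at -217 to -132 from the annotated start in RNASE2 and at -166 to -81 in RNASE3, so the windows were out of register. Being before both starts, the run is not part of the annotated transcripts. In a global alignment the windows matched at 242 of 351 columns (68.9%). Columns with a gap are counted among the 351 and lower this percentage, so the aligned bases were more alike than it says. In the canonical transcripts, 21 of the 685 stretches of 50 bases of RNASE3 also occurred in RNASE2 (3.07%), and 0 of its 585 stretches of 150 bases did. PRG3 and PRG2 shared 0 stretches of 50 bases. Reads that map to several places were removed by the authors, so a small part of the RNASE2 and RNASE3 reads may be missing from the counts.

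The libraries held 21502760 to 31679138 reads on the listed genes. The leading axis of a principal component analysis (PC1), made from log2 values of the 16887 genes tested, took 70.8% of the variance between libraries and did not follow the treatment: its scores ran from -48.0 to 41.1 in DMSO and from -46.8 to 71.6 in Tan I. DMSO replicate 2 and Tan I replicate 3 lay at the high end and both replicates 1 at the low end. The promyelocyte markers MPO, AZU1, PRTN3, CTSG and CD33 were listed (5 of 6 on the list), with summed levels of 70959 to 76923 normalized counts in DMSO and 41825 to 50123 in Tan I. MPO made up most of this sum, and CD33 differed little, with a log2 fold change of 0.07 (SE 0.11). Of the other marker lists, 1 of 8 erythroid, 1 of 4 megakaryocyte, 3 of 5 monocyte, 3 of 4 T cell and 3 of 4 B cell genes were listed. None of these listed markers had a mean of 0, and their part in the members' values was not tested. Summed levels ran from 15.4 to 51.3 (DMSO) and 10.7 to 28.3 (Tan I) for erythroid genes and from 26.1 to 34.7 and 34.8 to 57.7 for monocyte genes. They ran from 320 to 479 and 354 to 620 for T cell genes and from 516 to 801 and 556 to 914 for B cell genes. ITGA2B, the only megakaryocyte marker listed, ran from 1060 to 1127 and from 1332 to 1418. Fewer cells with a transcript and less of it per cell cannot be told apart in bulk RNA.

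Between genes, levels were compared per kb of exon, as normalized counts divided by the length of all annotated exons joined. HDC stood highest in DMSO, with 2680 ± 260 normalized counts per kb (SD, n = 3), rank 277 among the listed genes with a known length. RNASE2 followed with 1341 ± 261 and EPX with 1003 ± 62.0. Their libraries did not overlap, the lowest RNASE2 value being 1156 and the highest EPX value 1068 per kb. MS4A3 had 319 ± 41.7 and GATA2 206 ± 68.0 per kb. The libraries of these genes lay side by side, with the lowest MS4A3 value (290) just above the highest GATA2 value (283). PRG2 (63.2 ± 12.6), RNASE3 (41.8 ± 9.23) and PRG3 (10.0 ± 2.94) formed the low end. Here the closest PRG2 and RNASE3 libraries were 55.6 and 52.5 per kb. In Tan I the order of the means was the same, but MS4A3 (282 ± 72.4) and GATA2 (268 ± 38.6) overlapped and, with the length of the canonical transcript alone, changed places. PRG2 and RNASE3 also overlapped in Tan I, at 38.7 to 53.7 and 31.6 to 47.2 per kb. RNASE2 thus lay far above its paralog RNASE3, and EPX far above the other eosinophil granule protein genes PRG2 and PRG3.

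**Figure D1:**
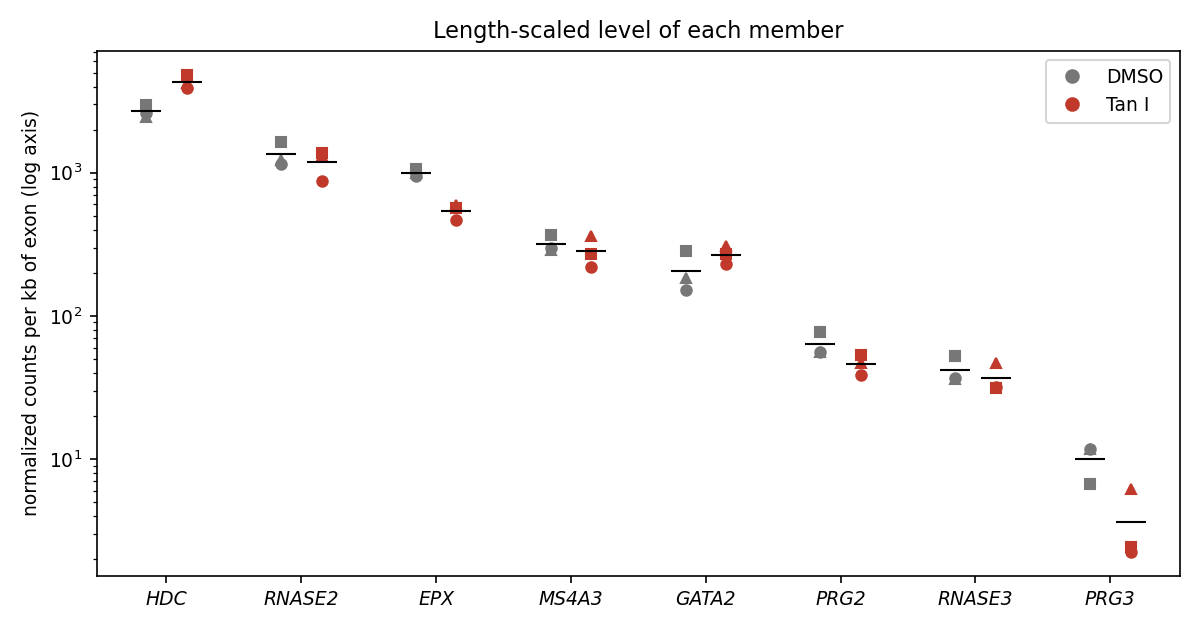
Normalized counts per kb of exon (log axis) for the 8 members, with 1 point per library (circle, square and triangle for replicates 1, 2 and 3), DMSO in grey and Tan I in red, and a black bar at each mean. HDC, RNASE2 and EPX lie highest in DMSO, at 2680, 1341 and 1003 per kb, and PRG3 lowest at 10.0.

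HDC (ENSG00000140287) encodes the enzyme that turns histidine into histamine and spans 50241947 to 50265965 of chromosome 15, - strand (GRCh38, GENCODE release 44). It had 10236, 11541 and 9544 normalized counts in DMSO replicates 1, 2 and 3 and 15138, 18870 and 16612 in Tan I. Every Tan I library was above every DMSO library. The means were 10440 ± 1014 and 16874 ± 1880 (SD, n = 3 each), a 1.62-fold difference. The log2 fold change was 0.69 with a standard error (SE) of 0.14, the 183rd highest of the 16887 genes tested. A small RNA pseudogene on the same strand, RN7SL494P, lies inside HDC, and its 37.4 ± 6.41 and 73.1 ± 25.3 normalized counts cannot be told apart from reads of HDC transcripts with certainty. The nearest listed neighbours were SLC27A2, 5562 bases away with a log2 fold change of 0.20 (SE 0.22), and GABPB1, 9424 bases away with -0.07 (SE 0.16). Both values were smaller than that of HDC, and the difference between the genes was not tested.

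GATA2 (ENSG00000179348), on chromosome 3 from 128479427 to 128493201 on the - strand, had 747, 1389 and 906 normalized counts in DMSO and 1125, 1321 and 1504 in Tan I. DMSO replicate 2 lay above Tan I replicates 1 and 2, so the groups overlapped. The means were 1014 ± 334 and 1317 ± 190 (SD, n = 3 each), giving a log2 fold change of 0.42 (95% confidence interval -0.13 to 0.97). The value was 0.67 without DMSO replicate 2 and 0.22 without DMSO replicate 1. GATA2-AS1, which overlaps GATA2 on the opposite strand, was low, with 13.8 ± 6.27 and 16.5 ± 12.1 normalized counts. The strand setting of the count is not given, so how reads from the shared stretch were assigned is not known.

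EPX (ENSG00000121053), the eosinophil peroxidase, spans 58192726 to 58205174 of chromosome 17, + strand. It had 2568, 2904 and 2712 normalized counts in DMSO and 1264, 1533 and 1614 in Tan I. Here every Tan I library was below every DMSO library. The means were 2728 ± 169 and 1470 ± 183 (SD, n = 3 each), 0.539 times the DMSO level, with a log2 fold change of -0.90 (SE 0.13), the 250th lowest of the genes tested. An unnamed transcript that overlaps EPX (AC005962.1) had 75.5 ± 13.8 and 62.0 ± 13.2 normalized counts. MKS1, whose nearest end is 267 bases away, had a log2 fold change of -0.15 (SE 0.19).

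PRG2 (ENSG00000186652), major basic protein, spans 57386780 to 57390650 of chromosome 11, - strand, 5.63 kb from its homolog PRG3 (ENSG00000156575, 57376769 to 57381150, - strand). PRG2 had 103, 144 and 104 normalized counts in DMSO and 71.4, 99.1 and 86.7 in Tan I. All Tan I libraries lay below all DMSO libraries, but the gap was narrow, 102.6 against 99.1. Its log2 fold change was -0.44 (SE 0.22, 95% confidence interval -0.96 to 0.09). PRG3 was at the edge of detection: 11, 6 and 13 reads fell on it in DMSO and 2, 2 and 4 in Tan I. In normalized counts these were 10.3, 5.78 and 10.2 against 1.95, 2.11 and 5.33, and the groups again did not overlap. PRG3 had a mean of 5.93 over the libraries, under the minimum of 10 set for the fit and close to 5.90, the lowest mean of any listed gene. Fitted without that minimum, the gene had a log2 fold change of -1.29 (95% confidence interval -2.52 to -0.07), a value that rests on few reads.

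RNASE2 (ENSG00000169385), the eosinophil-derived neurotoxin, spans 20955487 to 20956436 of chromosome 14, + strand. It had 833, 1180 and 883 normalized counts in DMSO and 628, 985 and 944 in Tan I. RNASE3 (ENSG00000169397), the eosinophil cationic protein, from 20891385 to 20892348 on the same strand, had 27.0, 38.5 and 26.6 in DMSO and 23.5, 23.2 and 34.7 in Tan I. For each of these ribonucleases the groups overlapped and DMSO replicate 2 held the highest value. Their log2 fold changes were -0.19 (95% confidence interval -0.69 to 0.31) and -0.18 (-0.90 to 0.54). Neither direction was firm: RNASE2 was at 0.02 without Tan I replicate 1 and RNASE3 at -0.01 without DMSO replicate 2. In normalized counts, RNASE2 exceeded RNASE3 30.8, 30.6 and 33.2 times in DMSO and 26.8, 42.5 and 27.2 times in Tan I.

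MS4A3 (ENSG00000149516), on chromosome 11 from 60056587 to 60071115 on the + strand, had 623, 763 and 604 normalized counts in DMSO and 454, 560 and 751 in Tan I. The groups overlapped, with Tan I replicate 3 above DMSO replicates 1 and 3. The means were 663 ± 86.8 and 588 ± 151 (SD, n = 3 each), giving a log2 fold change of -0.20 (95% confidence interval -0.67 to 0.28).

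**Figure D2:**
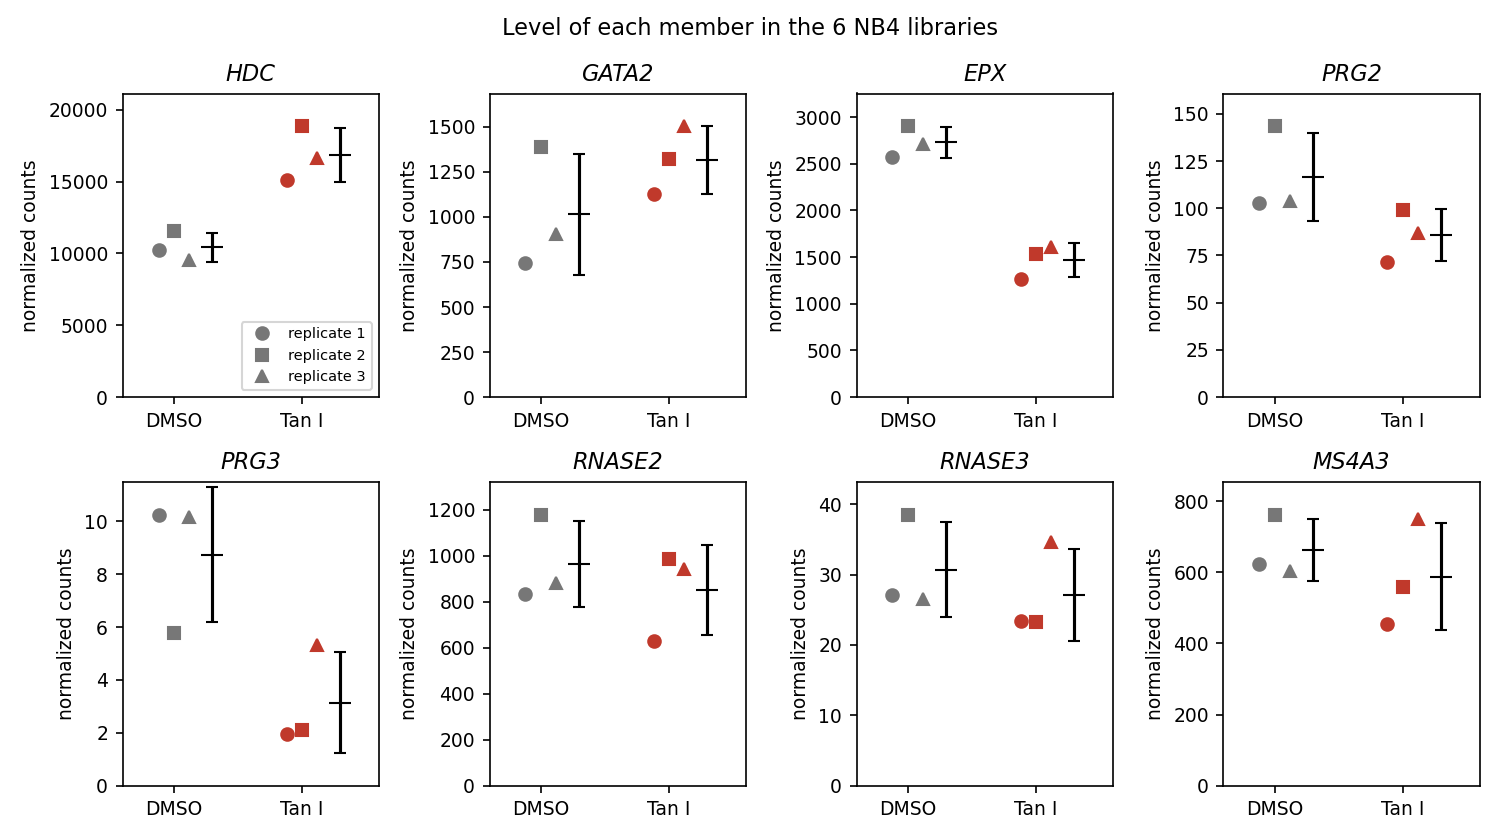
Normalized counts of the 8 members in each of the 6 libraries (axes from 0), with the mean and SD of the 3 libraries of a group in black beside the points. For HDC the Tan I libraries lie above, and for EPX, PRG2 and PRG3 below, all DMSO libraries, while GATA2, RNASE2, RNASE3 and MS4A3 overlap.

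Over the 8 members, the groups did not overlap for 4, 1 of them higher in Tan I (HDC) and 3 lower (EPX, PRG2 and PRG3). The groups did not overlap for 7.92% of all listed genes. Of the 7 members with a mean of at least 10, 2 were higher and 5 lower in Tan I. The median of their log2 fold changes was -0.19, against -0.0016 over all genes tested. At the study's cutoffs (an unadjusted p no higher than 0.05 and a log2 fold change of 0.25 or more in either direction), 2 of the 7, HDC and EPX, lay past both, which is how the set was chosen and no test of it. The same limma fit called 2.42% of all genes tested, 1.32% as higher and 1.10% as lower in Tan I. With the libraries rescaled to equal totals, which moved the median of all genes by -0.06, the split was 188 higher and 250 lower, against 223 and 185. Nothing is read from these counts. After Benjamini-Hochberg adjustment, limma called 0 of the 16887 genes, with 410 at an unadjusted p of at most 0.05, and edgeR and DESeq2 on the recovered reads called 0 and 16. These 410 genes are a smaller share of those tested than the 0.05 expected at this p with no difference at all. The number of limma calls therefore does not by itself show a difference.

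**Figure D3:**
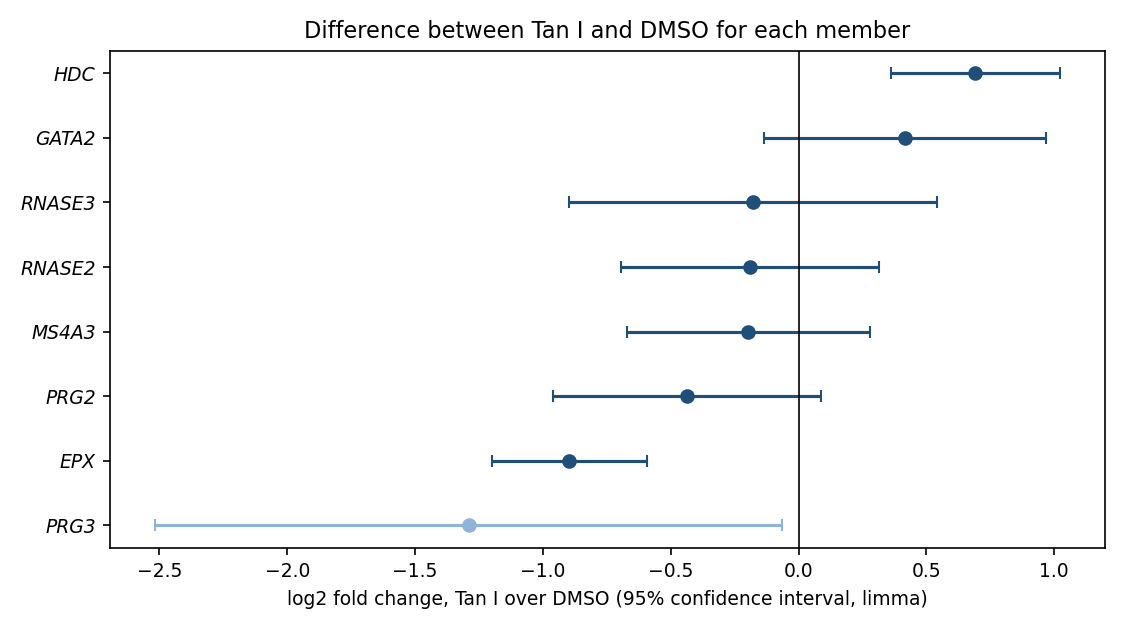
Log2 fold change (Tan I over DMSO) of each member with its 95% confidence interval from limma, PRG3 (light blue) being fitted without the minimum on the mean. HDC (0.69) and GATA2 (0.42) lie to the right of 0 and the other members to the left, down to EPX (-0.90) and PRG3 (-1.29).

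HDC had the highest log2 fold change of the 7 members tested and EPX the lowest, with the sparsely counted PRG3 below EPX in the fit without the minimum. In normalized counts not divided by length, HDC exceeded EPX 3.99, 3.97 and 3.52 times in DMSO and 11.98, 12.31 and 10.30 times in Tan I. The ratio averaged 3.83 ± 0.266 under DMSO and 11.5 ± 1.08 under Tan I (SD over the 3 libraries), and it does not depend on the scaling of a library. The ratio serves to compare libraries, since the genes differ in length. This ratio joins the members with the highest and the lowest fold change of those tested, so it is given as a description only.

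EPX is part of a cluster of heme peroxidase genes on chromosome 17, with LPO (lactoperoxidase, 13.4 kb away) and MPO (myeloperoxidase, 64.7 kb away) further along. MPO had 60389, 64107 and 63267 normalized counts in DMSO and 33279, 39450 and 37076 in Tan I, all Tan I libraries being lower. Its log2 fold change was -0.78 (SE 0.15, adjusted p = 0.999 from limma). MPO passed the unadjusted cutoffs and LPO, at -0.65 (SE 0.42) from 21.4 ± 5.82 to 13.5 ± 4.80 normalized counts, did not. Relative to MPO, EPX differed little between the groups. In normalized counts it was 4.25%, 4.53% and 4.29% of MPO in DMSO and 3.80%, 3.89% and 4.35% in Tan I, and the groups overlapped. CTSG, another primary granule gene, was also lower (1909 ± 438 and 1199 ± 333 normalized counts, SD, n = 3 each, log2 fold change -0.69, adjusted p = 0.999 from limma). AZU1 and PRTN3, at -0.25 (SE 0.19) and -0.32 (SE 0.24), did not pass the unadjusted cutoffs. Whether EPX follows the primary granule genes was not tested.

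**Figure D4:**
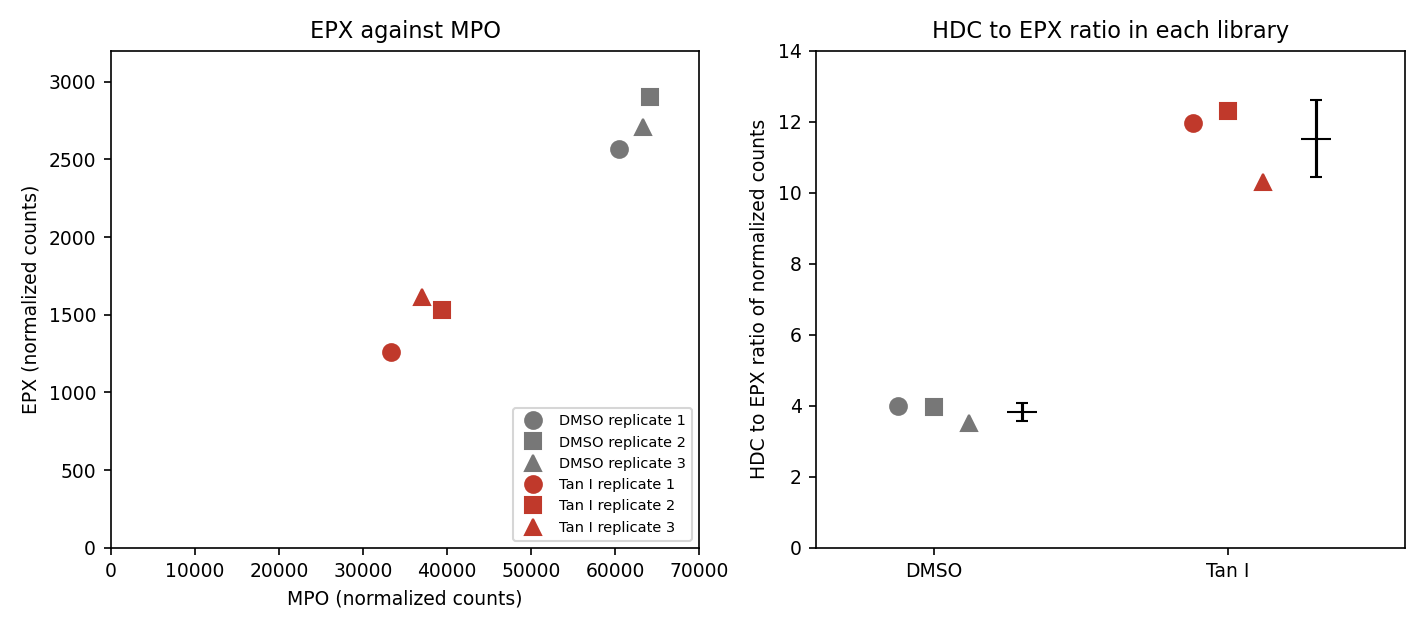
Left, EPX against MPO in normalized counts, 1 point per library (DMSO grey, Tan I red, both axes from 0); right, the ratio of HDC to EPX in each library with the mean and SD in black. EPX and MPO are both lower in every Tan I library, and the HDC to EPX ratio is 3.52 to 3.99 in DMSO and 10.3 to 12.3 in Tan I.

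The members were also set beside the PC1 score of each library. Over all 6 libraries, both groups pooled, Pearson's r with the PC1 score was 0.84 for GATA2, 0.76 for MS4A3, 0.74 for RNASE3 and 0.71 for RNASE2. It was 0.42 for HDC, 0.32 for PRG2, -0.07 for PRG3 and -0.01 for EPX. A pooled r mixes the gradient with the difference between the groups, so a value near 0 does not show that a gene did not vary along PC1. EPX had its highest DMSO value in DMSO replicate 2, which had the highest PC1 score of that group, and in Tan I its values were in the order of the scores. HDC and PRG2 also had their highest DMSO values in that library. These are descriptions over 6 points that share the same genes, libraries and depth. With the PC1 score as a covariate, a setting chosen after the data were seen, the log2 fold changes were 0.66 (SE 0.08) for HDC and -0.95 (SE 0.06) for EPX. They were 0.28 (SE 0.10) for GATA2, -0.31 (SE 0.08) for MS4A3, -0.31 (SE 0.10) for RNASE2, -0.29 (SE 0.26) for RNASE3 and -0.52 (SE 0.17) for PRG2. The direction of each of these 7 members was kept with the covariate, and all 7 values lay lower than without it. PC1 scores were on average higher in Tan I than in DMSO. A gene that rises with PC1 within the groups therefore gets a lower value by construction, and nothing is read from the shift.

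**Figure D5:**
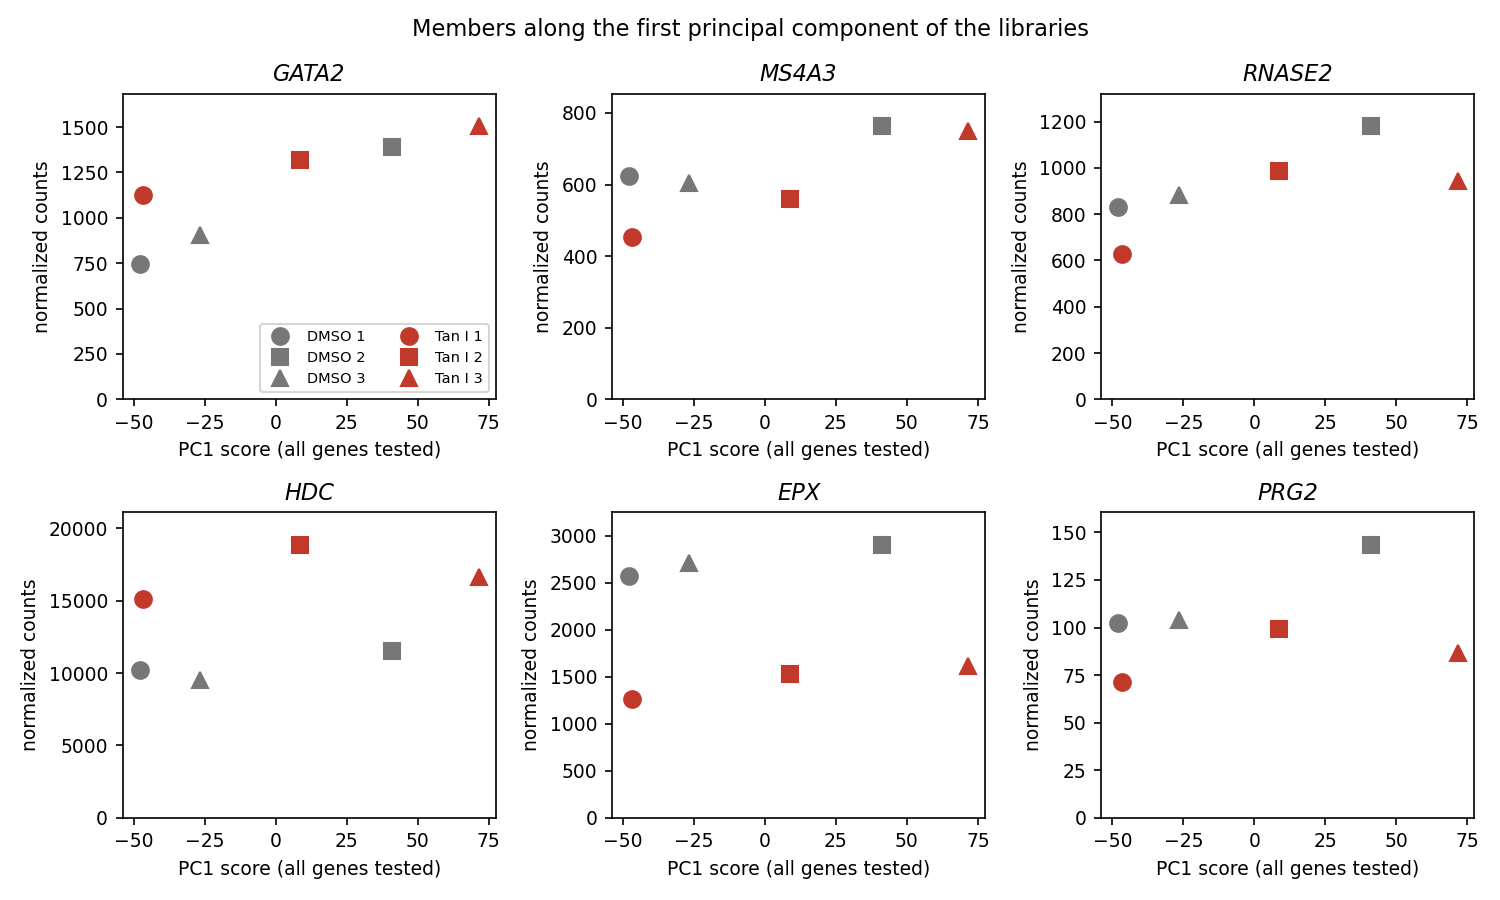
Normalized counts of 6 members (vertical axes, from 0) against the PC1 score of each library over all genes tested, DMSO in grey and Tan I in red, with circles, squares and triangles for replicates 1, 2 and 3. GATA2 is higher toward the right in both groups (r = 0.84 over 6 libraries), while EPX (r = -0.01) is lower in all Tan I libraries wherever they lie on the axis.

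The other genes of these lineages were read from lists written for this purpose. The lists together held 111 genes apart from the members, of which 61 were listed and 57 were tested. In the limma fit, 2 of the 57 passed the unadjusted cutoffs as higher in Tan I (CSF2RB and LGALS3) and 3 as lower (MPO, MS4A7 and MS4A14). Over all genes tested, the same cutoffs called 2.42%, 1.32% as higher and 1.10% as lower. Nothing is read from the counts of calls in the single lists below, which are small. None (0 of 57) passed with adjustment over all genes. The median log2 fold change of the 57 genes was 0.04, and 31 were above 0 and 26 below.

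Among eosinophil genes, 1 of the 10 tested was called. CSF2RB, the receptor chain shared by IL-5, IL-3 and GM-CSF, had 425, 463 and 433 normalized counts in DMSO and 644, 584 and 584 in Tan I, with all Tan I libraries higher. Its log2 fold change was 0.45 (SE 0.12, adjusted p = 0.999 from limma). The specific chain of the IL-5 receptor, IL5RA, was low, with 10.3, 15.4 and 15.6 normalized counts in DMSO and 10.8, 1.05 and 14.7 in Tan I. The eosinophil lectin SIGLEC8 had 22.9 ± 6.31 and 27.3 ± 3.60 normalized counts (SD, n = 3 each), and CCR3, the eotaxin receptor, had no row and is not analysed here. IL5RA and SIGLEC8 were named after their values were seen. Over the 11 listed genes of the list, DMSO means ran from 13.6 (CRLF2) to 448 (OLIG2) normalized counts, so IL5RA and SIGLEC8 are not typical of it.

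The basophil and mast cell list held 23 genes, of which 12 had a row. FCER1A, CPA3, TPSD1, TPSG1, KIT, HPGDS, IL4, IL13, CMA1, MRGPRX2 and SLC18A2 had no row and are not analysed here. Over the 12 listed genes, DMSO means ran from 4.98 (AKAP12) to 17567 (SRGN) normalized counts. Of the 11 genes tested, 0 were called. The most abundant were SRGN, the granule proteoglycan, with 17567 ± 4907 and 19395 ± 5175 normalized counts, and FCER1G, the Fc receptor gamma chain, with 653 ± 135 and 773 ± 192 (SD, n = 3 each). Their log2 fold changes were 0.14 (SE 0.26) and 0.24 (SE 0.22). MS4A2, the beta chain of the IgE receptor and the nearest listed gene to MS4A3 on its right (17.1 kb away), had 29.4 ± 1.30 and 27.5 ± 5.69 normalized counts. Genes for histamine handling also gave 0 calls of 4 tested. The histamine receptors HRH2 and HRH4 had log2 fold changes of -0.25 (SE 0.13) and 0.06 (SE 0.26), and the HRH2 groups did not overlap.

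Of 19 transcription factors of the branch tested, 0 were called, and 9 lay above and 10 below 0. STAT5B and XBP1 were the most abundant, at -0.09 (SE 0.11) and 0.13 (SE 0.28). GATA1, which acts with GATA2 in these lineages, had 95.4 ± 10.9 and 101 ± 17.1 normalized counts. SPI1 (PU.1) was at 0.36 (SE 0.18) and CEBPE, which is needed for secondary granules, at -0.12 (SE 0.27). GATA1, SPI1 and CEBPE were named for these roles after their values were seen, and the groups overlapped for each. Under other settings some factors of this list passed the unadjusted cutoffs. SPI1 did so with the replicate number as a block and LMO2 with equal totals. LYL1 and SPI1 passed without DMSO replicate 2, and ID2, IKZF2 and SPI1 without Tan I replicate 1. With PC1 as a covariate, CEBPD, CEBPE, LMO2, SPI1 and TRIB1 passed.

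Of the relatives of the members, the ribonuclease A family gave 0 calls of 3 tested, with RNH1, the ribonuclease inhibitor, at 0.03 (SE 0.17) and RNASE6 at 0.18 (SE 0.37). In the MS4A family 2 of 4 were called, both lower. MS4A7 had 119, 125 and 96.9 normalized counts in DMSO and 77.2, 51.6 and 52.0 in Tan I, a log2 fold change of -0.92 (SE 0.24). MS4A14 had 74.6, 79.0 and 84.4 in DMSO and 47.9, 45.3 and 30.7 in Tan I, at -0.95 (SE 0.25). Each had an adjusted p of 0.999 from limma. These genes overlap on the + strand of chromosome 11, about 307 kb from MS4A3, so their reads may not be fully separate and they are not independent results. For both, every Tan I library was below every DMSO library. Of 7 galectins tested, relatives of CLC, 1 was called: LGALS3 had 422, 646 and 439 normalized counts in DMSO and 671, 766 and 1168 in Tan I. Its log2 fold change was 0.77 (SE 0.25, adjusted p = 0.999 from limma), and it lost its call without DMSO replicate 1 or without DMSO replicate 3.

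For the members with a mean of at least 100, the genes most alike over the 6 libraries were sought among 11090 genes by Pearson's r of the log2 values, as a description of 6 points with shared libraries. For EPX they were LZTFL1 (r = 0.996) and MPO (0.991), the latter also its neighbour on the chromosome. For HDC they were CNTLN (0.992) and TIGD1 (0.991), for GATA2 EIF2AK1 (0.994) and PICALM (0.994), and for PRG2 ENTR1 (0.979) and TMEM43 (0.979). MS4A3 was most like FAM76A (0.989) and RWDD3 (0.988), and RNASE2 most like PCOLCE2 (0.995) and RETREG2 (0.992). Each r is among the highest over 11090 genes, pools both groups and ignores the size of a difference. For example, the means in DMSO and Tan I were 2728 and 1470 normalized counts for EPX. They were 444 and 396 for LZTFL1 and 62588 and 36602 for MPO. No member was among the 2 most alike genes of another member. RNASE3 and PRG3, with means under 100, could not be. Nothing is read from this, since only 2 of 11090 genes were kept for each member.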

How the data were processed

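RNA-seq of NB4 cells after 3 days in DMSO or in Tan I (10 μM) was used, 3 libraries per group, grouped by the sample labels. According to the study's methods and the submitters' processing notes, paired-end reads were aligned to GRCh38 with STAR, reads mapping to several locations were removed, reads were counted per gene with featureCounts, and DESeq2 was used; versions, annotation release and strand setting are not given in the sources used here. The deposited signal values are read counts that the authors divided by a size factor per library. All values (100%) were whole multiples, within 0.01, of what 1 read was worth, so reads were recovered (21502760 to 31679138 per library). Fold changes, their errors and p-values of the authors' own comparison are deposited beside them and were not used.

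Values were tested with limma 3.58.1 (lmFit, eBayes with trend; R 4.3.3) on log2(normalized count + 1) over 16887 genes whose mean reached 10, which understates changes of low genes; p-values were adjusted by Benjamini-Hochberg over all of them. The fit was tested on simulated data. Alternatives were pseudocounts of 0.1 and 10, no filter, a mean of at least 50, rescaling to the same total, quantile normalization, eBayes without trend, edgeR 4.0.16 and DESeq2 1.42.0 on the reads, a block for the replicate number, omission of every single library and, added after seeing the data, PC1 as a covariate. The members, the gene lists and the tests were chosen with earlier results of these data known. Named were all members, each called gene of a list (otherwise its 2 most abundant), the 2 genes most alike each member, and some of the members' neighbours. Positions and exon lengths came from GENCODE release 44 (GRCh38), which held 99.6% of the identifiers. Counting error limits only the genes with few reads; the spread between libraries limits the others.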

Additional observations from a re-analysis of the deposited data

How the results depend on the processing

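The count of 408 genes called at the unadjusted cutoffs stayed within 1.5 times under the planned changes of pseudocount, filter, scaling, variance trend and tool. After rescaling of the libraries to equal totals, however, 188 genes were higher and 250 lower, against 223 and 185. Leaving out 1 library gave 160 to 1496 genes: 180 without DMSO replicate 1, 201 without DMSO replicate 3, 160 without Tan I replicate 2, 271 without Tan I replicate 3 and 1496 without Tan I replicate 1. With PC1 as a covariate the count was 1496, and 195 genes passed with adjustment. The 5 companion genes called became 4 to 8 with 1 library left out, 8 of them without Tan I replicate 1, and 12 with PC1 as a covariate; the cause was not tested. With the replicate number as a block, limma called 348 genes and 6 companion genes. Same-numbered libraries correlated at 0.75, -0.09 and -0.45 in their deviations from the group means, so the numbers were not taken as pairs, and not every library correlated best with its own number. Over the 17 alternatives, the log2 fold change ran from 0.60 to 0.77 for HDC, -0.97 to -0.79 for EPX, -0.55 to -0.28 for PRG2, 0.22 to 0.67 for GATA2 and -0.39 to -0.03 for MS4A3. That of RNASE3 ran from -0.36 to -0.01 over 16, and that of RNASE2, with no call, from -0.31 to 0.02, positive only without Tan I replicate 1. PRG3 was fitted only without the filter, and its low reads are limited by depth.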
